A study of Mus musculus with 4 samples.

Results

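The mitosis and G2/M genes are 55 genes of the 24421 listed for CD69+CD4+CD8+ thymocytes. They were taken by gene symbol for their known roles in mitotic entry, the spindle, the kinetochore, chromosome condensation and cytokinesis. All 55 were found, and all 55 passed the filter for testing. They were expressed in every sample, with at least 70 reads for each gene.

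RNA was sequenced from FACS-sorted CD69+CD4+CD8+ cells (CD69+DP), which are double-positive (DP) cells that have received a T-cell receptor signal, from the thymus of mice aged 6 weeks on a C57BL/6 background. The 2 control samples came from Foxa1fl/fl Foxa2fl/fl mice that lacked the CD4Cre transgene. The 2 Foxa1/2cKO samples came from mice with the same floxed alleles of *Foxa1* and *Foxa2*, which encode a pair of related pioneer transcription factors, and with CD4Cre. Cre was driven by the *Cd4* promoter, so deletion was directed to T cells from the DP stage onwards, and both groups carried the floxed alleles. The methods say that each sample was sorted on its own from different mice, that a sort took 2 mice of each genotype, and that controls were littermates. *Foxa1* and *Foxa2* had an FPKM of 0 in each of the 4 samples, and as this includes the controls, their levels do not check the genotypes.

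A cell that has copied its DNA enters mitosis when Cdk1 bound to a B-type cyclin becomes active, and the spindle then pulls sister chromatids apart once the spindle checkpoint is satisfied. Transcripts of this programme are made late in the cell cycle and fall when cells stop dividing, so they are widely used as a measure of proliferation. In the thymus, division is concentrated in double-negative (DN) precursors and in the cells that have just become DP, whereas most later DP cells are small and resting.

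Levels are FPKM, that is fragments divided by gene length in kilobases and by a depth factor of the sample. Genes of different length can thus be compared within a sample. Whole reads recovered from these values came to 14482418 and 13070960 on listed genes in the controls, with 10396815 and 11262387 in Foxa1/2cKO 1 and 2. The recovered depth factor was 14968316 and 13576813 in the controls, with 10796528 and 11093927 in Foxa1/2cKO 1 and 2. It was thus below the reads in Foxa1/2cKO 2 only. The marker genes of the sorted cell were high throughout, with *Lck* at 749, 741, 675 and 844 FPKM, *Cd8b1* at 592, 613, 668 and 974 FPKM, *Cd3g* at 664, 665, 624 and 849 FPKM, *Cd4* at 342, 352, 345 and 446 FPKM and *Cd69* at 113, 103, 107 and 121 FPKM in the order control 1, control 2, Foxa1/2cKO 1, Foxa1/2cKO 2.

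The 2 Foxa1/2cKO samples did not resemble each other in these genes. Summed over the 55 genes, the level was 1922 and 2056 FPKM in the controls, and 2146 and 936 FPKM in Foxa1/2cKO 1 and 2. The level of the median gene was 25.03 and 26.96 FPKM in the controls, and 25.9 and 10.6 FPKM in Foxa1/2cKO 1 and 2. Foxa1/2cKO 1 therefore lay at the level of the controls or a little above, and Foxa1/2cKO 2 was far below all 3 other samples. As a share of the control mean, the median gene stood at 106% in Foxa1/2cKO 1 (range 85.01 to 132%) and at 37.1% in Foxa1/2cKO 2 (range 28.5 to 107%), while control 2 stood at a median of 107% of control 1 (range 91.7 to 119%). In bulk RNA such as this, fewer dividing cells in a sample and less of each transcript per cell cannot be told apart. Because the 2 samples of the same genotype differed more than the genotypes did, each Foxa1/2cKO sample is given apart throughout.

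**Figure D1:**
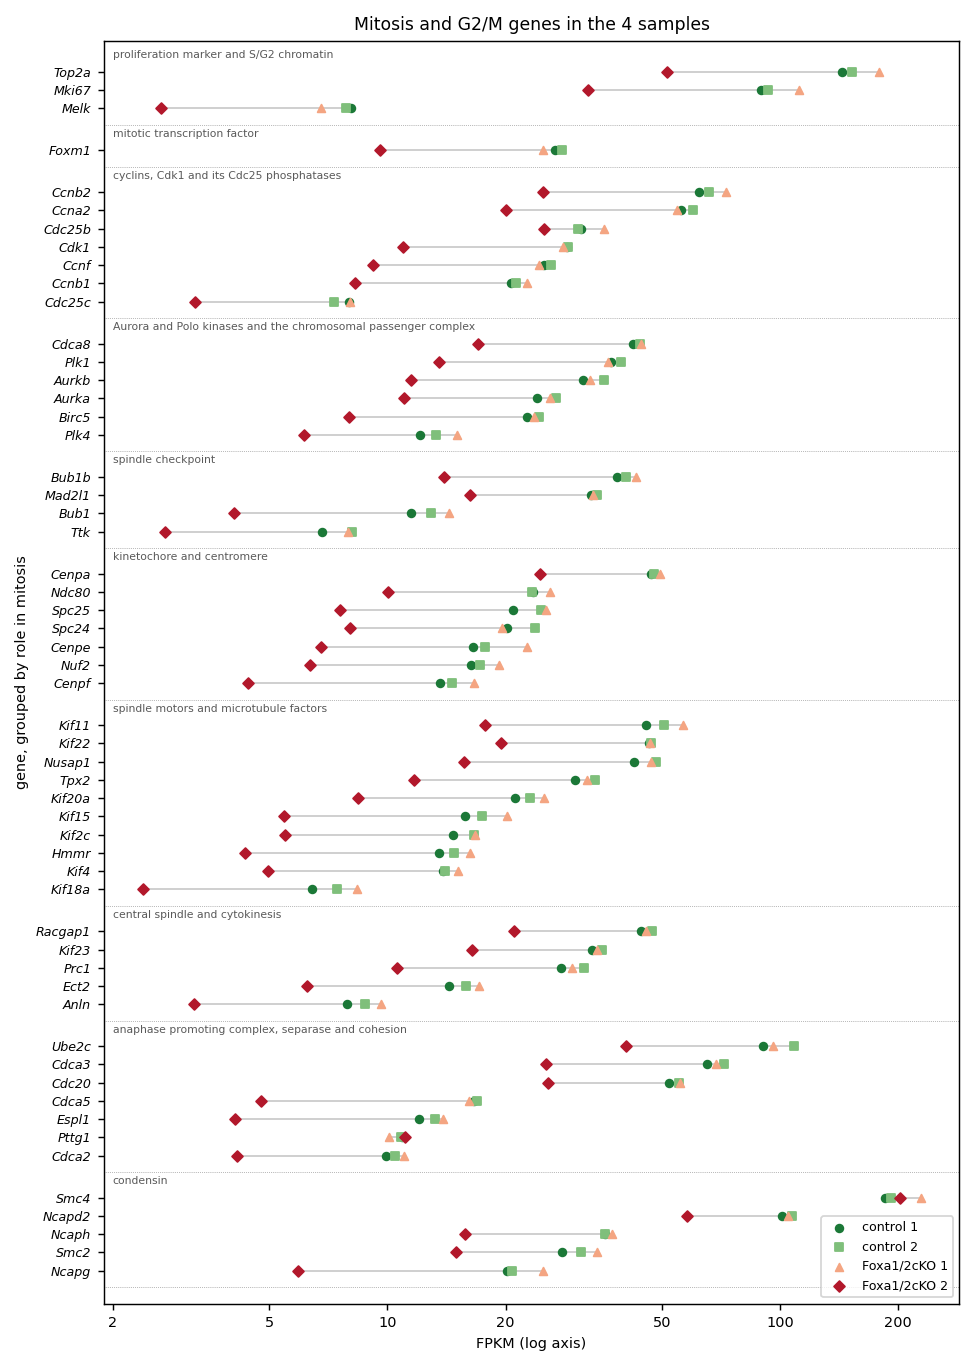
FPKM (log axis) of the 55 mitosis and G2/M genes, one gene per line and grouped by role, in control 1 (dark green circles), control 2 (light green squares), Foxa1/2cKO 1 (orange triangles) and Foxa1/2cKO 2 (red diamonds), with no error bars because each point is 1 sample. The red diamond lies below both controls for 53 of the 55 genes, where 39.6% of all genes tested did so. The exceptions are *Pttg1* and *Smc4*.

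Among the proliferation genes, *Mki67* (chromosome 7, 135689784 to 135716361 of mm10), which encodes the Ki-67 protein used to stain cycling cells, stood at 89.3 and 93.3 FPKM in the controls, and 112 and 32.5 FPKM in Foxa1/2cKO 1 and 2. *Top2a*, the topoisomerase that untangles sister chromatids, was among the most abundant of the 55, at 144 and 153 FPKM in the controls, and 179 and 51.4 FPKM in Foxa1/2cKO 1 and 2. For both genes Foxa1/2cKO 1 was the highest sample, at 123% and 120.4% of the control mean, and Foxa1/2cKO 2 the lowest, at 35.6% and 34.7%. *Melk*, a kinase of proliferating cells, was lower than both controls in each Foxa1/2cKO sample, at 8.09 and 7.84 FPKM in the controls, and 6.77 and 2.66 FPKM in Foxa1/2cKO 1 and 2. *Foxm1*, the forkhead factor that activates many G2/M genes, was also below both controls in each Foxa1/2cKO sample, at 26.7 and 27.8 FPKM in the controls, and 24.9 and 9.60 FPKM in Foxa1/2cKO 1 and 2.

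The cyclins and the kinase they activate lay near the controls in Foxa1/2cKO 1 and well below them in Foxa1/2cKO 2. *Cdk1*, the kinase that drives mitotic entry, stood at 28.7 and 28.9 FPKM in the controls, and 28.1 and 10.9 FPKM in Foxa1/2cKO 1 and 2. Its partners *Ccna2*, *Ccnb1* and *Ccnb2* had 94.5%, 108% and 114% of the control mean in Foxa1/2cKO 1, against 34.7%, 39.4% and 39.00% in Foxa1/2cKO 2. The values were 56.04 and 59.95 FPKM in the controls, and 54.8 and 20.1 FPKM in Foxa1/2cKO 1 and 2 for *Ccna2*, and 20.7 and 21.2 FPKM in the controls, and 22.6 and 8.25 FPKM in Foxa1/2cKO 1 and 2 for *Ccnb1*. *Ccnb2* was measured at 62.04 and 66.1 FPKM in the controls, and 73.03 and 24.98 FPKM in Foxa1/2cKO 1 and 2. *Ccnf*, which encodes a cyclin that serves a ubiquitin ligase, stood at 25.03 and 26.1 FPKM in the controls, and 24.3 and 9.19 FPKM in Foxa1/2cKO 1 and 2. The Cdc25 phosphatases, which remove the inhibitory phosphates from Cdk1, differed from each other in Foxa1/2cKO 2. *Cdc25c* stood at 7.98 and 7.32 FPKM in the controls, and 8.06 and 3.25 FPKM in Foxa1/2cKO 1 and 2, in step with the cyclins. *Cdc25b* (chromosome 2, 131186949 to 131198497) stood at 31.2 and 30.6 FPKM in the controls, and 35.6 and 25.1 FPKM in Foxa1/2cKO 1 and 2, so that Foxa1/2cKO 2 kept 81.1% of the control mean (95% counting interval 75.1 to 87.5%).

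Mitotic genes are known to share promoter elements, the CCAAT box and the cell cycle homology region, so the promoters were searched for CCAAT and for TTTGAA or TTCGAA, each on both strands. RefSeq (assembly GRCm38.p6) gave 48 promoters, from 250 bases before to 50 bases after the start, for 46 of the 55 genes. The CCAAT letters were in 34 of the 48 (70.8%), against 37.4% of all promoters, and at least 2 copies were in 45.8% against 11.7%. The TTTGAA or TTCGAA letters were in 37 (77.1%), against 19.2% of all promoters. Both kinds were in 32 (66.7%), against 7.52% of all promoters and 5.75% of those of the genes tested. No match of either kind lay in the window of *Birc5*, *Kif18a*, *Mad2l1*, *Melk*, *Ncaph*, *Nuf2*, *Nusap1*, *Plk4* or *Pttg1*. In that order, these had 33.8%, 34.3%, 48.3%, 33.4%, 44.0%, 38.0%, 34.5%, 48.4% and 102% of the control mean in Foxa1/2cKO 2. No promoter was used here for *Foxm1*, *Ccna2*, *Cdc25c*, *Aurkb*, *Spc24*, *Kif20a*, *Tpx2*, *Cdca2* and *Smc4*. The last 100 bases before the start, 5′ to 3′ on the strand of the gene with the searched letters in capitals, are shown for 4 genes whose level in Foxa1/2cKO 2 was low and for *Cdc25b*, whose level was nearer to the controls.
Cdk1, chr10:69352913-69353012 on the minus strand: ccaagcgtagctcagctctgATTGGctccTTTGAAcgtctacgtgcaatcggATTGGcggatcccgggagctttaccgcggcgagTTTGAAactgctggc
Ccnb2, chr9:70421555-70421654 on the minus strand: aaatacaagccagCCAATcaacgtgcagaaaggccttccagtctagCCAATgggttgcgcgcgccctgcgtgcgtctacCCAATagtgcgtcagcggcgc
Cdc20, chr4:118437344-118437443 on the minus strand: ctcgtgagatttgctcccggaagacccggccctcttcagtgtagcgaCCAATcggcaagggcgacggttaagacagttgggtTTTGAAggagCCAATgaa
Top2a, chr11:99024190-99024289 on the minus strand: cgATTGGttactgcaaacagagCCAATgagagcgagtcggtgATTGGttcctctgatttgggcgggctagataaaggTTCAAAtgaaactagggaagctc
Cdc25b, chr2:131186848-131186947 on the plus strand: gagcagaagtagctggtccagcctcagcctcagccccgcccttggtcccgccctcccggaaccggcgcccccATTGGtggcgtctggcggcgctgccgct

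These letters are a description of the windows, and whether any factor bound there was not measured. *Cdk1* showed 2 CCAAT boxes and 2 TTTGAA motifs in these 100 bases, *Ccnb2* 3 CCAAT boxes, *Cdc20* 2 CCAAT boxes and 1 TTTGAA motif, and *Top2a* 3 CCAAT boxes and 1 TTTGAA motif. *Cdc25b* showed 1 CCAAT box. In the full window, *Cdc25b* also had 1 TTTGAA or TTCGAA match and *Ccnb2* had 2. Whether the letters go with the level in Foxa1/2cKO 2 was not tested. None of the marked letters overlapped another match.

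The Aurora and Polo kinases and the chromosomal passenger complex, which correct wrong spindle attachments and drive cytokinesis, were at a median of 101% of the control mean in Foxa1/2cKO 1 and 37.4% in Foxa1/2cKO 2. *Plk1*, the main Polo kinase of mitosis, stood at 37.03 and 39.5 FPKM in the controls, and 36.5 and 13.5 FPKM in Foxa1/2cKO 1 and 2. *Aurka*, the Aurora kinase of the spindle poles, stood at 24.1 and 26.96 FPKM in the controls, and 26.03 and 11.00 FPKM in Foxa1/2cKO 1 and 2. *Aurkb*, the kinase of the passenger complex, stood at 31.4 and 35.5 FPKM in the controls, and 32.8 and 11.5 FPKM in Foxa1/2cKO 1 and 2. Its partners in the complex were likewise lowest in Foxa1/2cKO 2, with *Birc5*, which encodes survivin, at 22.7, 24.3, 23.6 and 7.97 FPKM and *Cdca8*, which encodes borealin, at 42.2, 44.03, 44.3 and 17.02 FPKM in the 4 samples in turn. *Plk4*, which starts the duplication of centrioles, was the least lowered of the 6 in Foxa1/2cKO 2, at 12.1 and 13.3 FPKM in the controls, and 15.1 and 6.15 FPKM in Foxa1/2cKO 1 and 2.

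The spindle checkpoint holds anaphase until every chromosome is attached. *Bub1*, a checkpoint kinase, stood at 11.5 and 12.9 FPKM in the controls, and 14.4 and 4.07 FPKM in Foxa1/2cKO 1 and 2. *Bub1b*, which encodes the inhibitor BubR1, stood at 38.4 and 40.6 FPKM in the controls, and 42.9 and 13.95 FPKM in Foxa1/2cKO 1 and 2. The kinase gene *Ttk* was the lowest expressed of the group, at 6.84 and 8.15 FPKM in the controls, and 7.96 and 2.72 FPKM in Foxa1/2cKO 1 and 2. *Mad2l1*, which encodes the Mad2 protein that holds Cdc20 inactive, stood at 33.1 and 34.2 FPKM in the controls, and 33.5 and 16.3 FPKM in Foxa1/2cKO 1 and 2. None of the 4 lay below both controls in Foxa1/2cKO 1, where 40.7% of all genes tested did. All 4 did so in Foxa1/2cKO 2, where 39.6% of all genes did, at 33.3% to 48.3% of the control mean.

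At the kinetochore, the structure that joins a chromosome to the spindle, 6 of 7 genes were above both controls in Foxa1/2cKO 1 (36.4% of all genes tested) and all 7 were below both in Foxa1/2cKO 2 (39.6% of all genes tested). The 4 subunits of the Ndc80 complex, which binds microtubules directly, had 42.9% (*Ndc80*), 38.02% (*Nuf2*), 36.4% (*Spc24*) and 33.2% (*Spc25*) of the control mean in Foxa1/2cKO 2. *Ndc80* itself stood at 23.5 and 23.4 FPKM in the controls, and 25.9 and 10.03 FPKM in Foxa1/2cKO 1 and 2, while *Spc24* stood at 20.2 and 23.8 FPKM in the controls, and 19.6 and 8.02 FPKM in Foxa1/2cKO 1 and 2. *Spc24* was the 1 kinetochore gene that was not above both controls in Foxa1/2cKO 1. *Cenpa*, the histone H3 variant that marks centromeres, was the least lowered of the 7, at 47.03 and 47.8 FPKM in the controls, and 49.6 and 24.5 FPKM in Foxa1/2cKO 1 and 2. *Cenpe*, a kinetochore motor, had the highest share of the control mean of all 55 genes in Foxa1/2cKO 1, at 132%, with 16.5 and 17.7 FPKM in the controls, and 22.6 and 6.78 FPKM in Foxa1/2cKO 1 and 2. *Cenpf*, a large protein of the outer kinetochore, had the lowest share of the 7 in Foxa1/2cKO 2, at 13.7 and 14.6 FPKM in the controls, and 16.6 and 4.43 FPKM in Foxa1/2cKO 1 and 2.

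The 10 spindle motors and microtubule factors were all below both controls in Foxa1/2cKO 2, where they ran from 30.6% (*Hmmr*) to 41.9% (*Kif22*) of the control mean. *Kif11*, the motor that pushes spindle poles apart, stood at 45.7 and 50.7 FPKM in the controls, and 56.7 and 17.7 FPKM in Foxa1/2cKO 1 and 2. *Tpx2*, which activates Aurora A on the spindle, stood at 29.98 and 33.8 FPKM in the controls, and 32.3 and 11.7 FPKM in Foxa1/2cKO 1 and 2. *Hmmr*, a spindle-associated protein, stood at 13.6 and 14.8 FPKM in the controls, and 16.2 and 4.33 FPKM in Foxa1/2cKO 1 and 2. *Kif22*, a motor on chromosome arms, stood at 46.4 and 46.9 FPKM in the controls, and 46.6 and 19.5 FPKM in Foxa1/2cKO 1 and 2. The other 6 (*Kif15*, *Kif18a*, *Kif20a*, *Kif2c*, *Kif4* and *Nusap1*) lay between 32.9% and 38.2% in Foxa1/2cKO 2, and between 103% and 122% in Foxa1/2cKO 1.

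The genes of the central spindle and cytokinesis, which build and close the cleavage furrow, had a median of 41.4% of the control mean in Foxa1/2cKO 2 and of 99.99% in Foxa1/2cKO 1. *Prc1*, which bundles the microtubules of the central spindle, stood at 27.7 and 31.7 FPKM in the controls, and 29.5 and 10.6 FPKM in Foxa1/2cKO 1 and 2. The centralspindlin pair of the motor *Kif23* and the GTPase-activating protein *Racgap1* had 48.2% and 46.05% of the control mean in Foxa1/2cKO 2, with *Kif23* at 33.2 and 35.1 FPKM in the controls, and 34.1 and 16.4 FPKM in Foxa1/2cKO 1 and 2. *Anln*, which encodes the scaffold anillin, stood at 7.91 and 8.75 FPKM in the controls, and 9.65 and 3.23 FPKM in Foxa1/2cKO 1 and 2. *Ect2*, the exchange factor that activates RhoA at the furrow, stood at 14.4 and 15.8 FPKM in the controls, and 17.1 and 6.26 FPKM in Foxa1/2cKO 1 and 2.

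At the step of anaphase, *Cdc20*, which activates the anaphase promoting complex, stood at 52.1 and 55.2 FPKM in the controls, and 55.8 and 25.6 FPKM in Foxa1/2cKO 1 and 2. *Ube2c*, the ubiquitin-conjugating enzyme of that complex, stood at 90.6 and 108 FPKM in the controls, and 95.9 and 40.6 FPKM in Foxa1/2cKO 1 and 2. *Espl1*, which encodes separase, the protease that cuts cohesin, stood at 12.02 and 13.2 FPKM in the controls, and 13.9 and 4.11 FPKM in Foxa1/2cKO 1 and 2. *Cdca5*, which encodes sororin, the protector of sister chromatid cohesion, had the lowest share of the control mean of all 55 genes in Foxa1/2cKO 2, at 28.5% (counting interval 22.9 to 34.99%), with 16.6 and 16.9 FPKM in the controls, and 16.2 and 4.78 FPKM in Foxa1/2cKO 1 and 2. *Cdca3* and *Cdca2*, further genes of the cell division cycle, had 37.1% and 40.6%. *Pttg1* (chromosome 11, 43420250 to 43426251), which encodes securin, the inhibitor of separase, was not lower in Foxa1/2cKO 2. It stood at 10.9 and 10.8 FPKM in the controls, and 10.1 and 11.1 FPKM in Foxa1/2cKO 1 and 2, or 102% of the control mean in Foxa1/2cKO 2, and the counting interval of 86.8 to 119.9% holds 100%.

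The condensin genes, whose products compact chromosomes, had the widest range of any role in Foxa1/2cKO 2. The core subunits of condensin are *Smc2* and *Smc4*, and *Ncapd2*, *Ncapg* and *Ncaph* encode its other parts in condensin I. *Smc4* (chromosome 3, 69004738 to 69034623) was the most abundant of the 55 genes and stood at 185 and 192 FPKM in the controls, and 228 and 202 FPKM in Foxa1/2cKO 1 and 2, above both controls in each Foxa1/2cKO sample. *Smc2*, its partner, stood at 27.9 and 31.2 FPKM in the controls, and 34.2 and 14.98 FPKM in Foxa1/2cKO 1 and 2. *Ncapd2* stood at 101 and 108 FPKM in the controls, and 105 and 57.8 FPKM in Foxa1/2cKO 1 and 2, *Ncaph* at 35.8 and 35.9 FPKM in the controls, and 37.4 and 15.8 FPKM in Foxa1/2cKO 1 and 2. *Ncapg* stood at 20.2 and 20.8 FPKM in the controls, and 24.9 and 5.92 FPKM in Foxa1/2cKO 1 and 2 and had 28.9% of the control mean in Foxa1/2cKO 2, next to the lowest of all 55. In Foxa1/2cKO 2 the 5 condensin genes therefore ran from 28.9% to 107% of the control mean, and in Foxa1/2cKO 1 from 101% to 122%.

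*Smc4*, *Pttg1* and *Cdc25b* stood apart from the other genes in Foxa1/2cKO 2, and were singled out after their values were seen. The other 52 genes lay between 28.5 and 55.5% of the control mean there, with 47 of the 55 between 30 and 50% and 2 under 30%. The SD of the log2 ratio to the control mean across the 55 genes was 0.37 in Foxa1/2cKO 2 and 0.21 without these 3 genes, against a median of 0.09 from counting error alone. In Foxa1/2cKO 1 the SD was 0.14, against 0.06 from counting error. The transcripts of *Smc4*, *Pttg1* and *Cdc25b* shared under 10% of their stretches of 50 bases with other annotated genes. More than 10% were shared for 8 members, namely *Ccna2*, *Ccnb1*, *Cdc25c*, *Plk1*, *Kif20a*, *Kif4*, *Cdc20* and *Ube2c*, so the levels of these are less certain. The highest share was 42.1%, for *Ccnb1*, which overlaps no other gene and shares sequence with its pseudogenes. The other 7 overlap a gene on the opposite strand, and whether the counting used the strand is not given in the sources used here.

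Whether the genotypes differed was tested with limma on log2(FPKM + 1) over the 10776 genes with at least 1 FPKM in at least 2 samples. Of these, 1 gene had an adjusted p under 0.05 with Benjamini-Hochberg adjustment (0.00928%), and it was not one of the 55. Before adjustment, 490 genes (4.55%) had a p under 0.05, and 0 of the 55 did so in either direction. The smallest unadjusted p of the 55 was 0.102, for *Melk*, and their adjusted p ran from 0.863 to 0.968. The mean was lower in Foxa1/2cKO for 54 of the 55, with *Smc4* as the exception, and for 5253 of the 10776 genes tested. However, the difference between the group means was smaller than the SD between Foxa1/2cKO 1 and 2 for 52 of the 55. This was not counted over all genes tested, so whether it is particular to the 55 is not known. The SD of the median gene was 0.06 on the log2 scale for the 2 controls, and 0.96 for the 2 Foxa1/2cKO samples. The median log2 fold change of the 55 was -0.58, against 0.01 over all genes tested, and it rested on Foxa1/2cKO 2, since without that sample the median was 0.082.

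The log2 fold changes (Foxa1/2cKO minus control) of the genes with the smallest p were -0.75 (SE 0.37) for *Melk*, 0.19 (SE 0.10) for *Smc4*, -0.75 (SE 0.40) for *Spc24*, -0.77 (SE 0.43) for *Foxm1* and -0.78 (SE 0.47) for *Ccna2*, each with an adjusted p of 0.863 from limma. They were -0.58 (SE 0.58) for *Mki67*, -0.62 (SE 0.59) for *Top2a*, -0.68 (SE 0.43) for *Cdk1*, -0.57 (SE 0.45) for *Ccnb1* and -0.49 (SE 0.37) for *Cdc20*, with an adjusted p of 0.863 to 0.870 from limma. Both Foxa1/2cKO samples lay below both controls for 8 of the 55 genes, where 17.8% of all genes tested did so, and above both controls for 1 gene, *Smc4*, where 18.9% did so. The 8 genes were *Melk*, *Foxm1*, *Cdk1*, *Ccna2*, *Ccnf*, *Plk1*, *Spc24* and *Cdca5*. With 2 samples against 2, an exact permutation test cannot give a two-sided p under 0.3333, and the p-values measure the spread between these samples only.

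Leaving out 1 Foxa1/2cKO sample changed these calls. Without Foxa1/2cKO 1, when the lone Foxa1/2cKO 2 is assumed to vary like the controls, limma gave an adjusted p under 0.05 for 53 of the 55 genes, all lower, and for 2559 of all genes tested (23.7%). Without Foxa1/2cKO 2, 0 of the 55 had an adjusted p under 0.05 where 19 of all genes tested did (0.176%). Before adjustment 12 were higher with a p under 0.05, as were 7.61% of all genes tested, and 0 were lower. The mean was then higher in Foxa1/2cKO for 40 of the 55 and lower for 15. Over all genes tested, the median log2 fold change without Foxa1/2cKO 2 was -0.0088.

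Taken as a single sample, Foxa1/2cKO 2 was below both controls for 53 of the 55 genes, where 39.6% of all genes tested were. It was lower than the control mean by at least 1.5-fold on the log2(FPKM + 1) scale for 52 of the 55, where 7.05% of all genes tested were. Under 50% of the control mean, in plain FPKM, were 49 genes. The lower quartile over all genes tested was 86.5%, and how many of all genes tested lay under 50% was not counted. The counting interval of the share lay below 100% for 53 genes, though such intervals cover counting error only and not the variation between mice. They were computed for the 55 genes only, so how many of all genes tested would do so is not known. The median gene of the 55 lay at percentile 1.32 of all genes tested when these were ordered by the ratio of Foxa1/2cKO 2 to the controls, 52 of the 55 lay in the lowest 5% and 22 in the lowest 1%. Of the 303 genes tested that were at least 2-fold lower in Foxa1/2cKO 2 on that scale, 48 were among the 55 and 68 were other genes of mitosis or DNA replication.

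Foxa1/2cKO 1 was below both controls for 9 of the 55 genes, where 40.7% of all genes tested were, and above both for 32, where 36.4% were. The other 14 lay between the controls. It was lower by at least 1.5-fold for 0 of the 55, where 0.882% of all genes tested were. The counting interval lay above 100% of the control mean for 23 genes, below it for 2 (*Melk* and *Foxm1*), and held it for 30. These intervals cover counting error only and were not computed for the other genes tested, so no share over all genes stands beside them. The median gene lay at percentile 71.1 of all genes tested.

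**Figure D2:**
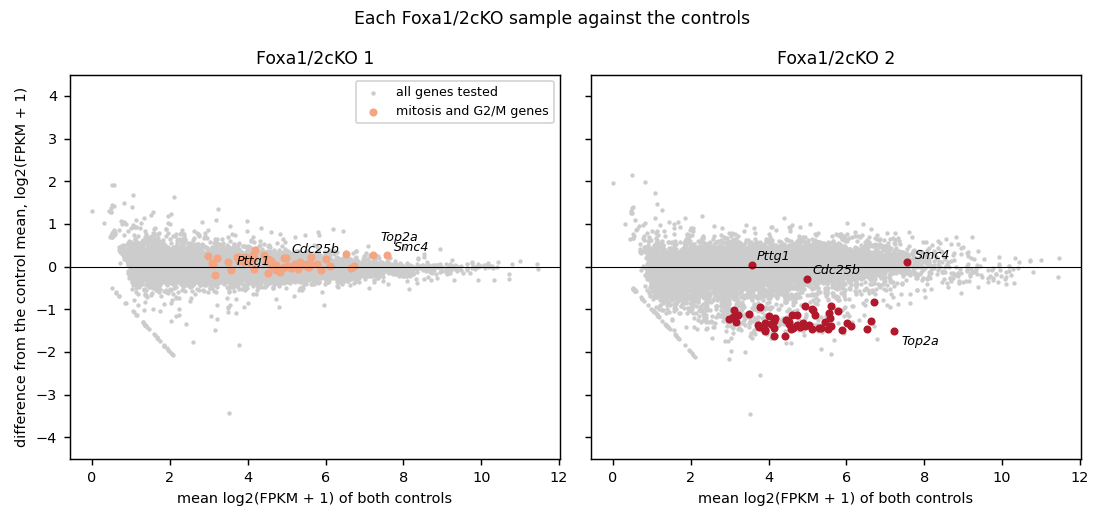
Difference of each Foxa1/2cKO sample from the control mean on the log2(FPKM + 1) scale (vertical axis) against the control mean on the same scale (horizontal axis), for all 10776 genes tested (grey) and the 55 mitosis and G2/M genes (coloured). The coloured points lie around 0 in Foxa1/2cKO 1, with a median of 0.08, and form a band with a median of -1.29 in Foxa1/2cKO 2, apart from *Pttg1*, *Smc4* and *Cdc25b*.

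Within the 55 genes, the share of the control mean in Foxa1/2cKO 1 went with gene length as recovered from the FPKM. The Spearman rho across the 55 genes was 0.58 and the Pearson r with log2 length 0.58, as a description, since genes of the same libraries are not independent. The 28 shorter genes (up to the median length of 3099 bases) had a median of 100.3% of the control mean in Foxa1/2cKO 1, and 11 were above both controls there, as were 36.4% of all genes tested. The 27 longer genes had a median of 115%, and 21 were above both controls. In Foxa1/2cKO 2 the rho with length was -0.22, and the shorter and longer genes had medians of 38.5% and 36.3%. Over 10775 genes tested with a length, rho was 0.13 for Foxa1/2cKO 1 and 0.11 for Foxa1/2cKO 2.

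**Figure D3:**
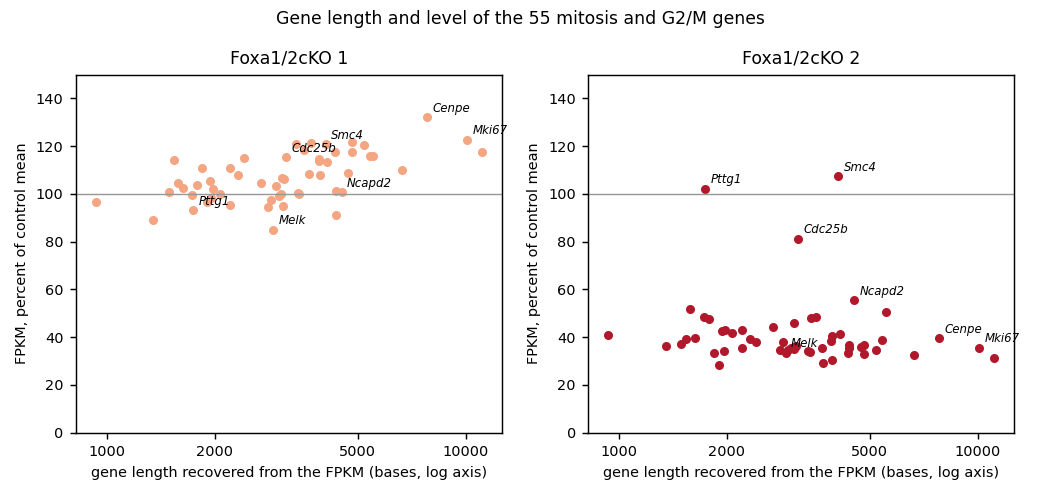
FPKM as a percent of the control mean (vertical axis) against gene length in bases (log axis) for the 55 genes, in Foxa1/2cKO 1 (left) and Foxa1/2cKO 2 (right), with each point 1 gene in 1 sample. In Foxa1/2cKO 1 the longer genes such as *Cenpe* and *Mki67* stand higher, at 132% and 123%, and in Foxa1/2cKO 2 most genes lie in a band under 56% whatever their length.

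The rest of the cell cycle programme was followed in lists that hold none of the 55 genes. Of 68 other mitotic genes tested, 66 had a lower mean in Foxa1/2cKO, as did 5253 of the 10776 genes tested. Before adjustment 1 of the 66 (*Cenpt*) had a limma p under 0.05, and 0 passed after it. The median of the 68 was 105% of the control mean in Foxa1/2cKO 1 and 39.0% in Foxa1/2cKO 2. In Foxa1/2cKO 2, 65 were below both controls (39.6% of all genes tested) and 56 were lower by at least 1.5-fold (7.05% of all genes tested). The 3 most abundant of them moved less, with *Tubb5*, a beta-tubulin, at 698, 716, 668 and 614 FPKM, *Stmn1*, a microtubule destabiliser, at 166, 169.8, 161 and 107 FPKM, and *H2afx*, a histone variant, at 157, 164, 169 and 86.96 FPKM in the 4 samples in turn.

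The 58 DNA replication genes, which act in S phase, had a median of 100.1% in Foxa1/2cKO 1 and 52.5% in Foxa1/2cKO 2. There 57 were below both controls (39.6% of all genes tested), and 44 were lower by at least 1.5-fold (7.05% of all genes tested). *Pcna*, the sliding clamp of the replication fork, stood at 148 and 144 FPKM in the controls, and 146 and 88.4 FPKM in Foxa1/2cKO 1 and 2. *Mcm7*, a subunit of the replicative helicase, stood at 97.8 and 105 FPKM in the controls, and 104 and 67.00 FPKM in Foxa1/2cKO 1 and 2, and *Rrm2*, the regulatory subunit of ribonucleotide reductase, at 105 and 114 FPKM in the controls, and 108 and 33.1 FPKM in Foxa1/2cKO 1 and 2. Of the 58, 1 gene, *Gins1*, was lower with a p under 0.05 before adjustment, and 0 passed after it.

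The G1 cyclins, the inhibitors of cyclin-dependent kinases and the pocket protein and E2F factors, many of which are not tied to mitosis, form another list. Its 27 tested genes had a median of 97.4% in Foxa1/2cKO 1 and 89.0% in Foxa1/2cKO 2. There 6 were lower by at least 1.5-fold (7.05% of all genes tested) and 1 was higher (193 of the 10776 genes tested). The higher one was *Btg2*, an antiproliferative gene, at 139.9 and 124 FPKM in the controls, and 133 and 226 FPKM in Foxa1/2cKO 1 and 2. *Ccnd3*, the D-type cyclin most used by thymocytes, stood at 414 and 437 FPKM in the controls, and 379.6 and 380.4 FPKM in Foxa1/2cKO 1 and 2, and *Cdk4*, its kinase, at 145 and 145 FPKM in the controls, and 135 and 114 FPKM in Foxa1/2cKO 1 and 2. Among the lower ones, named after their values were seen, were *Ccnd2* at 58.5 and 61.5 FPKM in the controls, and 67.4 and 19.9 FPKM in Foxa1/2cKO 1 and 2 and *E2f8* at 20.04 and 21.9 FPKM in the controls, and 18.7 and 5.37 FPKM in Foxa1/2cKO 1 and 2. Before adjustment 1 gene of the list, *Cdkn1c*, was lower with a p under 0.05, and 0 passed after it.

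**Figure D4:**
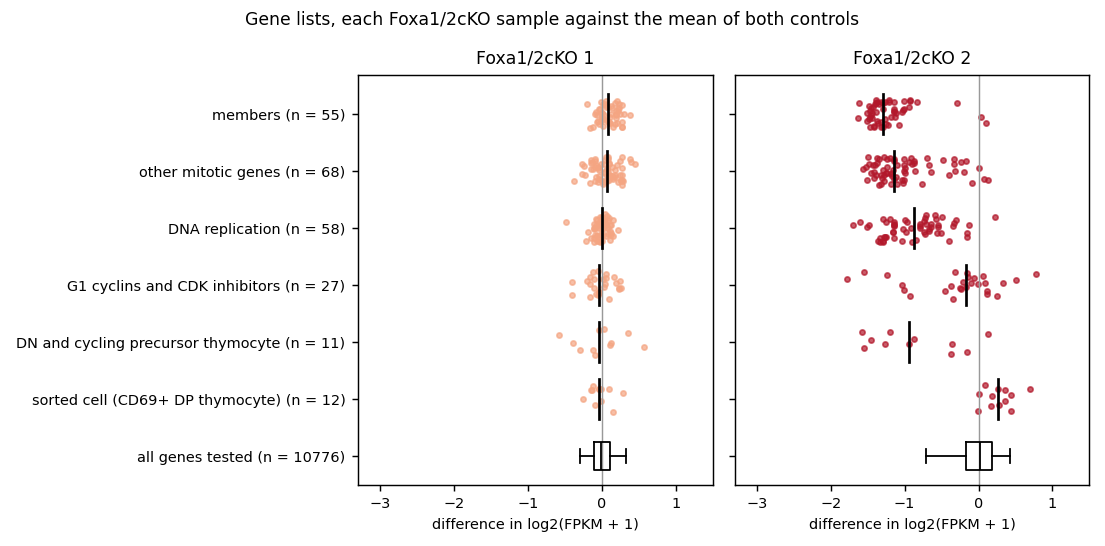
Difference from the control mean on the log2(FPKM + 1) scale in Foxa1/2cKO 1 (left) and Foxa1/2cKO 2 (right) for the 55 members and 5 other gene lists, with each point 1 gene and black bars at list medians. Boxes for all 10776 genes tested span the quartiles and their whiskers the range from percentile 5 to 95. Most of the members, the other mitotic genes, the DNA replication genes and the precursor markers lie to the left in Foxa1/2cKO 2. The sorted cell markers lie around or above 0.

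Markers of other thymocyte stages were read in the same samples, since the members are also high in dividing precursors. The 12 markers of the sorted cell had a median of 96.8% of the control mean in Foxa1/2cKO 1 and 121% in Foxa1/2cKO 2 (range 99.8 to 162%). The CD4 and CD8 gate would remove DN cells, but would not by itself remove cells that have just become DP. The sort also required CD69, and how many such cells passed it was not measured. The 11 tested markers of DN and cycling precursors had a median of 96.3% in Foxa1/2cKO 1 and 37.7% in Foxa1/2cKO 2. There 7 were lower by at least 1.5-fold (7.05% of all genes tested). The summed level of this list was 129.7 and 140.1 FPKM in the controls, and 131 and 66.3 FPKM in Foxa1/2cKO 1 and 2. None of its 12 genes was at 0 in every sample. Of its 3 most abundant genes, *Il7r*, the IL-7 receptor chain, stood at 33.7 and 44.1 FPKM in the controls, and 41.5 and 13.4 FPKM in Foxa1/2cKO 1 and 2, *Tfrc*, the transferrin receptor of growing cells, at 34.5 and 35.8 FPKM in the controls, and 36.02 and 26.98 FPKM in Foxa1/2cKO 1 and 2, and *Dtx1*, a Notch target, at 16.5 and 15.8 FPKM in the controls, and 12.96 and 4.83 FPKM in Foxa1/2cKO 1 and 2. *Ptcra* and *Notch3* of this list were lower with a p under 0.05 before adjustment, and with an adjusted p of 0.863 from limma. The paper, which used a different test, lists *Notch3* among its differentially expressed genes as lower in Foxa1/2cKO. In Foxa1/2cKO 2, 9 of the 11 were below both controls (39.6% of all genes tested). *Lyl1* and *Spi1* lay between the controls there, at 85.3% and 112% of the control mean. In Foxa1/2cKO 1, 5 were below both controls (40.7% of all genes tested), among them *Ptcra*, *Notch3* and *Dtx1* at 64.1%, 73.5% and 80.3%. Another 4 were above both controls there (36.4% of all genes tested), with *Spi1* and *Lyl1* highest at 167% and 137%. For 5 of the 11, both Foxa1/2cKO samples lay below both controls (17.8% of all genes tested). Most precursor markers were thus low in the same sample as the mitosis and G2/M genes. In Foxa1/2cKO 1 these markers lay on both sides of the controls. Their part in the result was not tested.

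Markers of mature single-positive thymocytes, which divide little, had a median of 98.7% in Foxa1/2cKO 1 and 66.4% in Foxa1/2cKO 2. There 5 of 10 were lower by at least 1.5-fold (7.05% of all genes tested) and 2 were higher (193 of the 10776 genes tested). Summed B cell markers were 80.3 and 53.5 FPKM in the controls, and 109 and 57.95 FPKM in Foxa1/2cKO 1 and 2. Summed myeloid and dendritic markers were 92.6 and 62.2 FPKM in the controls, and 85.5 and 53.2 FPKM in Foxa1/2cKO 1 and 2. Erythroid markers summed to 0.608 to 2.67 FPKM, and epithelial and stromal markers to 53.1 to 66.2 FPKM. Most of the epithelial and stromal sum was *Pecam1* alone, at 48.6, 55.2, 55.97 and 61.8 FPKM in the 4 samples in turn. The next, *Epcam*, stood at 2.76 to 3.86 FPKM. Genes of the dissociation stress response summed to 528 and 487 FPKM in the controls, and to 439 and 546 FPKM in Foxa1/2cKO 1 and 2. The part of these other cells in the values of the mitosis and G2/M genes was not tested.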

How the data were processed

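The authors sorted CD69+CD4+CD8+ thymocytes of 2 control and 2 Foxa1/2cKO mouse samples and aligned RNA-seq reads to mm10 with RefSeq genes in BaseSpace. Reads were counted with HTSeq in union mode and tested by the authors with DESeq2, with p-values then re-estimated by fdrtool. The submitters' processing notes also name TopHat and Picard. The authors deposited FPKM, 1 value for each gene in each sample, and the tool that made them is not given in the sources used here. The members and lists were chosen with earlier results of these data known.

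The steps between low values gave whole reads for 99.99% of the 16069 genes above 0, of 24421 listed. Of genes over 50 reads, 96.33% gave a whole length directly and 3.669% after a multiplier. limma 3.58.1 in R 4.3.3, with a mean-variance trend, was fitted to log2(FPKM + 1) for genes with at least 1 FPKM in at least 2 samples, with 2 residual and 2.69 prior degrees of freedom. The log2(FPKM + 1) scale understates the change of low genes. Adjustment was by Benjamini-Hochberg at 0.05. The pipeline was tested on simulated data. Each Foxa1/2cKO sample was also set against the control mean, with 1.5-fold as the size rule. Intervals are 95% exact intervals for the ratio of reads and cover counting error only.

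Genes named are members by role, the 5 with the smallest p and the 3 most abundant genes of the cell cycle, precursor and sorted-cell lists, with *Cd4* and *Cd69* as the sort markers. The mature single-positive, B cell and myeloid lists are given by summed or median values. Some genes were picked once their values had been seen. *Ptcra*, *Notch3*, *Cenpt*, *Gins1* and *Cdkn1c* were named for a limma p under 0.05. *Lyl1*, *Spi1*, *Pecam1* and *Epcam* were named for their levels. Others are marked in the text. Alternatives were no filter on low values, a pseudocount of 0.1, upper-quartile scaling, limma-voom on the recovered reads, a replicate block, and leaving out each sample. Gene coordinates are GENCODE vM21 and promoters are RefSeq, both of GRCm38, the assembly of mm10. Sharing was counted as the share of 50-base stretches of the longest annotated transcript held by another gene on either strand. Tables were made with pandas 2.3.3, numpy 2.4.6 and scipy 1.17.1 in Python 3.11.15, and figures with matplotlib 3.10.9. Exon usage was not analysed here.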

Additional observations from a re-analysis of the deposited data

How the results depend on the processing

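With 2 samples a group and 1 Foxa1/2cKO sample that stood apart, the comparison of genotypes rests on the choice of samples. The count of genes with an adjusted p under 0.05 was 1 as reported and 0 with a pseudocount of 0.1, with no filter on low values and with limma-voom on recovered reads, and it ran from 0 to 2559 when 1 sample was left out (2559 without Foxa1/2cKO 1, 19 without Foxa1/2cKO 2). Members lower with an unadjusted p under 0.05 went from 0 to 53 when 1 sample was left out, where without Foxa1/2cKO 1 17.7% of all genes were. A block for the replicate number gave 2 such members (3.64% of the 55, against 1.98% of all genes tested) and changed no call by adjusted p among the members. Same-numbered samples did not deviate together (r = -0.06 across genes), so the numbers were not taken as pairs. Members below both controls in every Foxa1/2cKO sample kept in the comparison went from 8 to 53 when 1 sample was left out, and without control 1 there were 22. Of all genes tested, 39.6% did so without Foxa1/2cKO 1 and 29.5% without control 1.

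The median log2 fold change of the members went from -1.29 to 0.082 when 1 sample was left out, and the upper end, without Foxa1/2cKO 2, had the opposite sign. The median log2 ratio of Foxa1/2cKO 2 to the controls was -1.42 with a pseudocount of 0.1 and -1.50 with limma-voom. Both compress low genes less than a pseudocount of 1. In addition, limma-voom scaled by the read totals, which differ from the depth factor of the FPKM. When 1 sample was left out, the log2 fold change ran from -1.46 to 0.29 for *Mki67*, from -1.51 to 0.27 for *Top2a*, from -1.25 to 0.11 for *Ccnb1* and from -1.04 to 0.054 for *Cdc20*. The highest of these were reached without Foxa1/2cKO 2. The smallest adjusted p of a member was 0.794 or more under the alternatives that kept all 4 samples, 0.000551 without Foxa1/2cKO 1, 0.128 without Foxa1/2cKO 2, and above 0.99 without either control. Genes with few reads in Foxa1/2cKO 2, such as *Cdc25c* with 70, are the least precise.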
